A study of Mus musculus with 12 samples.

Results

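The glypican genes Gpc4 and Gpc3 and the chromatin gene Phf6 lie one after another on the mouse X chromosome, and OCT4 occupied many sites along them in embryonic stem cells (mESCs). The peaks described here are all those with an allelic OCT4 or YY1 value that lie in one of these 3 gene bodies or within 20 kb of it. There were 13 of them among the 1006 X-linked OCT4 peaks with a value, namely 2 at Gpc4, 8 at Gpc3 and 3 at Phf6, and 0 among the 211 YY1 peaks. The genes were chosen by the density of OCT4 peaks along them, with the changes of X-linked peaks already known, so that density and counts over the members are descriptions. Chromatin bound by OCT4 or YY1 was recovered with an antibody and sequenced (ChIP-seq) from iXist-ChrX-Cast cells, a female hybrid mESC line (Dom/129S x Cast in the labels) in which doxycycline drives Xist from one X chromosome. The cells had either 6 days of doxycycline at 1 µg/ml (day 6) or none (day 0), and line, strain and culture protocol were the same in all libraries. Each factor had 2 libraries per day, and with 4 inputs there were 12 libraries in all. Nothing in the labels says that replicates were separate cultures, and the p-values below rest on a spread between libraries that may be technical. A ChIP-seq series holds no expression values, and the cell type was therefore not checked against marker genes.

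The measurement was the allelic ratio, the fraction of a peak's allele-assigned fragments that came from the chromosome with the inducible Xist, or Xi, as opposed to its active partner, Xa. A ratio of 0.5 is equal occupancy of both and 0 is none on Xi. The number of fragments behind each ratio is unknown, so no counting interval is given, and a ratio does not say whether total occupancy changed. Xist RNA spreads along the chromosome that transcribes it and leads to the silencing of most genes there. OCT4, encoded by Pou5f1, is a transcription factor that maintains pluripotency, and it often binds DNA together with SOX2. Glypicans are heparan sulphate proteoglycans held on the cell surface by a lipid anchor, where they bind growth factors of the Wnt, Hedgehog, FGF and BMP families. Loss of GPC3 in humans causes an overgrowth syndrome. Phf6 encodes a nuclear protein with PHD-like zinc fingers that associates with chromatin remodelling complexes, and in humans it is mutated in an intellectual disability syndrome and in T-cell leukaemia.

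Sequences under the peaks were compared because OCT4 recognises a known element, which was not used to choose the peaks. The octamer ATGCAAAT, on either strand, was present in 2 of the 13 peaks (15.4%), against 13.3% of all 1006. With the fifth base left free (ATGCNAAT) it was present in 4 (30.8%), against 21.1% of all. The OCT4-SOX2 composite element, which is CATTGT, 1 free base and the octamer, so that it overlaps the octamer search, was present with at most 2 mismatches in 3 peaks (23.1%), against 6.36% of all. The 13 peaks were wider than all OCT4 peaks (median 643 against 491.5 bases), and these shares were not adjusted for width. A match describes the sequence only and is not a measured site. Shown first are the peaks with a composite match, each 5′ to 3′ as a 90-base window of GRCm38.p6 (mm10) with the element in capitals. They are from downstream of Phf6 (Phf6-3, chrX:52961932-52962021, minus strand), from the first intron of Gpc4 (Gpc4-1, chrX:52163862-52163951, minus strand) and from intron 6 of Gpc3 (Gpc3-7, chrX:52343832-52343921, minus strand).
Phf6-3: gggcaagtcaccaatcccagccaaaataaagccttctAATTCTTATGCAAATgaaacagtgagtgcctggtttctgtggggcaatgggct
Gpc4-1: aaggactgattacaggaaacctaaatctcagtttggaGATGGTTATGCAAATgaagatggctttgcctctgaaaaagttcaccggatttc
Gpc3-7: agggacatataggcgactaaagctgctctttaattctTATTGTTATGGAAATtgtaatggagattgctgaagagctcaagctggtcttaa
The first 2 hold an exact octamer and Gpc3-7 does not. Those 2 are thus the peaks already counted with the octamer, and their mismatches all lie in the CATTGT part. A further pair of peaks, upstream of Phf6 (Phf6-2, chrX:52910092-52910181, plus strand) and in intron 6 of Gpc3 (Gpc3-5, chrX:52350791-52350880, plus strand), share the same variant octamer, in capitals, although their changes differed in size.
Phf6-2: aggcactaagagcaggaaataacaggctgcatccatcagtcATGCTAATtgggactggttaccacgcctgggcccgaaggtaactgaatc
Gpc3-5: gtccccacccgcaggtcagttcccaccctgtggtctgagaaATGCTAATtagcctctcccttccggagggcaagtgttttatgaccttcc
The peak with the largest decrease at Gpc3 (Gpc3-8, chrX:52277553-52277642, plus strand) holds none of these elements, and the middle of the peak is shown.
Gpc3-8: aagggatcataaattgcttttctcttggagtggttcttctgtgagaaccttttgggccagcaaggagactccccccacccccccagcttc

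Both glypican promoters have OCT4 peaks, and the 250 bases before each start, from RefSeq on GRCm38.p6, are shown with CG dinucleotides in capitals. The Gpc3 window (chrX:52613975-52614224, minus strand) lies wholly under peak Gpc3-2 and holds 25 CG dinucleotides. The Gpc4 window (chrX:52164924-52165173, minus strand) is partly covered by an OCT4 peak without an allelic value and holds 18.
Gpc3: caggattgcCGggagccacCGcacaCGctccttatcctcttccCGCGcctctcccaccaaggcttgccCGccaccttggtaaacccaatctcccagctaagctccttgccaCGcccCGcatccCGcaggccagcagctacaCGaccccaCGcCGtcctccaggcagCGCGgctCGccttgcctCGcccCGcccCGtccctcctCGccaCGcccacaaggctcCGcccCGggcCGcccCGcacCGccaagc
Gpc4: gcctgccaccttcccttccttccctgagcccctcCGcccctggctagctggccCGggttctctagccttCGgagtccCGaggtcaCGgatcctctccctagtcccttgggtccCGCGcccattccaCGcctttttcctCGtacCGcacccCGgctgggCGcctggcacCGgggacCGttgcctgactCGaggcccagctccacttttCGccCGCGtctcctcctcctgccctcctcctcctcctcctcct
The median over 32851 promoter windows of the same length was 6, and 5 over those of X. Neither window holds the octamer, which 1.60% of all these windows do.

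The mean OCT4 allelic ratio was lower at day 6 than at day 0 at each of the 13 peaks, as it was at 934 of all 1006. The direction turned at Gpc3-4 and Gpc3-7 when replicate 2 of day 6 was left out. Of the 13, 8 fell (limma, adjusted p under 0.05 over all 1006 peaks, n = 2 per day) and 0 rose, where 35% of all OCT4 peaks fell. Both day 6 ratios were under both day 0 ratios at 9 of the 13, against 73% of all peaks. The median change, day 6 minus day 0, was -0.233 over the 13 peaks (-0.236 in replicate 1 and -0.231 in replicate 2), beside -0.149 over all OCT4 peaks. The median peak of the 13 kept 52.0% of its day 0 ratio, and the median of all peaks was 68.6%. The calls rest on both day 0 libraries. Without the first of them 0 of the 13 were called, with 6 at an unadjusted p under 0.05, and without the second 0 were called, with 7. Over all OCT4 peaks 1 fell without the first and 0 without the second.

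**Figure D1:**
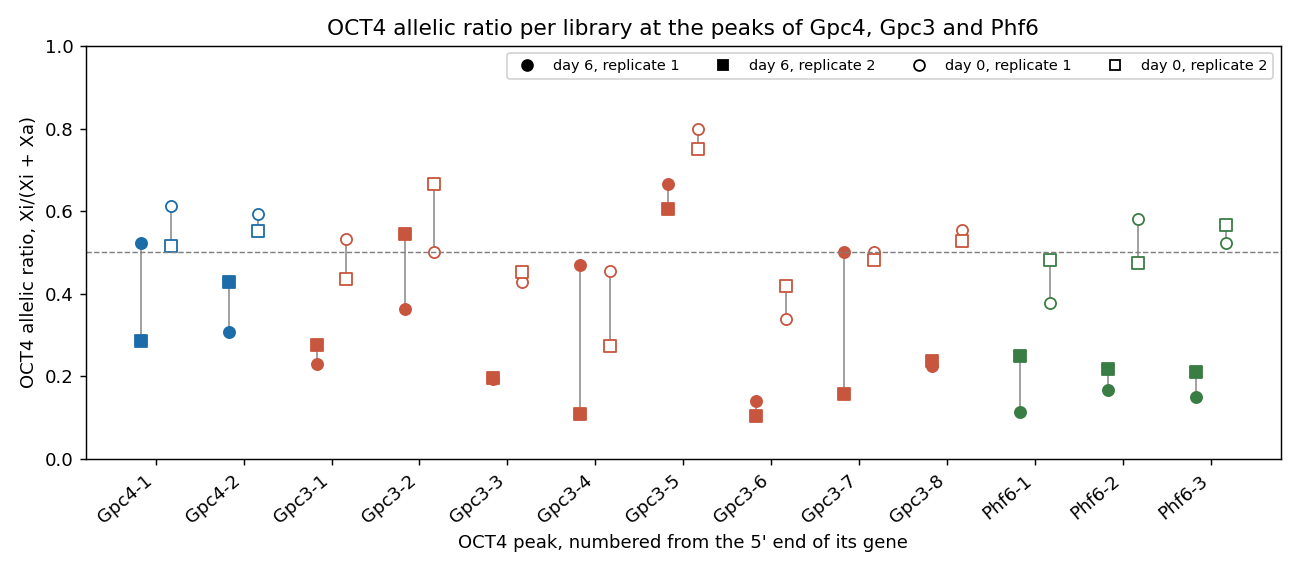
OCT4 allelic ratio, Xi/(Xi + Xa), on the vertical axis for the 13 peaks on the horizontal axis, numbered from the 5′ end of each gene. Filled points are the 2 day 6 libraries and open points the 2 day 0 libraries, circles replicate 1 and squares replicate 2, and the dashed line is 0.5. The 3 peaks of Phf6 sit between 0.114 and 0.250 at day 6 and between 0.378 and 0.581 at day 0, while Gpc4-1, Gpc3-4 and Gpc3-7 have day 6 replicates far apart.

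Gpc4 (chrX:52051007-52164923, minus strand, 9 exons in NM_008150.2) had 2 peaks with a value, both in its first intron. Gpc4-1 (52163480 to 52164596) begins 327 bases inside the gene and had ratios of 0.524 and 0.286 in the day 6 libraries, against 0.612 and 0.515 in the day 0 libraries. The higher day 6 library lay above the lower day 0 library, so the days overlapped. The change of -0.159 ± 0.0858 (SE) was not called (limma adjusted p = 0.167). Gpc4-2 (52129570 to 52129986) had 0.308 and 0.429 at day 6, against 0.594 and 0.552 at day 0. Here the days were apart, and the ratio fell by 0.205 ± 0.0626 (limma adjusted p = 0.0422), the highest adjusted p among the 8 called peaks. Without replicate 1 of day 6 the calls changed places, since Gpc4-1 then had a change of -0.278 (limma adjusted p = 0.0277) and Gpc4-2 of -0.144 (limma adjusted p = 0.133). Gpc4-2 was not called with a replicate block (limma adjusted p = 0.0599), on the logit scale (limma adjusted p = 0.0654) or on the log2 scale (limma adjusted p = 0.0971).

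Gpc3 (chrX:52272426-52613974, minus strand, 8 exons in NM_016697.3) is the longest of the 3 genes at 342 kb. At its 5′ end, Gpc3-1 (52632687 to 52633660), 18.7 kb before the start, had ratios of 0.229 and 0.275 at day 6, against 0.533 and 0.435 at day 0. Both day 6 libraries were low, and the ratio fell by 0.233 ± 0.0600 (limma adjusted p = 0.0279, and 0.0589 without replicate 1 of day 6). Gpc3-2 (52613556 to 52614326), which covers the promoter shown above and coding exon 1, had 0.364 and 0.545 at day 6, against 0.5 and 0.667 at day 0. The days overlapped at this promoter, and its change of -0.129 ± 0.0836 was not called (limma adjusted p = 0.239). The distal peak upstream and the promoter peak therefore fell on different sides of the threshold, but the difference between them was not tested.

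The other Gpc3 peaks lie in introns 5 to 7, far from the start. Gpc3-3 in intron 5 (52379303 to 52379797), which lies near the microRNA gene Mir6384, had 0.192 and 0.197 at day 6, against 0.429 and 0.452 at day 0. The replicates of each day were close to one another, and the ratio fell by 0.246 ± 0.0532 (limma adjusted p = 0.0205). Gpc3-8 in intron 7 (52277143 to 52278053), whose sequence is shown above, had 0.224 and 0.237 at day 6, against 0.555 and 0.527 at day 0. It fell by 0.310 ± 0.0534 (limma adjusted p = 0.0163), the largest decrease at Gpc3 and rank 69 of the 1006 peaks.

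Intron 6 of Gpc3 held 4 peaks whose levels differed widely. Gpc3-6 (52348604 to 52349267) had 0.140 and 0.104 at day 6, against 0.339 and 0.417 at day 0. It fell by 0.256 ± 0.0575 (limma adjusted p = 0.0226) and kept 32.3% of its day 0 ratio, the lowest share of the 13. Its neighbour Gpc3-5 (52350640 to 52351028), only 1.37 kb away, had 0.667 and 0.606 at day 6, against 0.8 and 0.75 at day 0. Gpc3-5 was thus the peak with the highest ratios of the 13 on both days, and at day 6 it still had more OCT4 fragments from Xi than from Xa. Its days did not overlap, but the change of -0.139 ± 0.0567 was not called (limma adjusted p = 0.0898), and it kept 82.1% of its day 0 ratio. Shares kept of a bounded ratio are hard to compare between peaks with unlike day 0 ratios. On the logit scale the change was -0.680 at Gpc3-5, near the -0.668 of Gpc4-1, and -1.48 at Gpc3-6.

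The difference in change between these neighbours was tested directly, a comparison chosen after their values were seen. The change of Gpc3-6 minus that of Gpc3-5 was -0.117 ± 0.0928 (SE, limma adjusted p = 0.743 over 155 neighbouring pairs of X-linked OCT4 peaks up to 5 kb apart). It was not beyond the spread between replicates, and 1 of the 155 pairs passed. The remaining pair of intron 6 peaks had discordant day 6 libraries. Gpc3-4 (52363229 to 52363598) had 0.471 and 0.108 at day 6, against 0.455 and 0.273 at day 0, a change of -0.0743 ± 0.119 (limma adjusted p = 0.624). Gpc3-7 (52343439 to 52344081), which has the composite match shown above, had 0.5 and 0.158 at day 6, against 0.5 and 0.481 at day 0, a change of -0.162 ± 0.104 (limma adjusted p = 0.236). In both, replicate 1 of day 6 was as high as day 0 and replicate 2 was far lower. Without replicate 2 of day 6 the change was 0.107 at Gpc3-4 and 0.00926 at Gpc3-7, so the direction turned. Without replicate 1 of day 6 Gpc3-7 passed the threshold, with a change of -0.333 (limma adjusted p = 0.0198), and without replicate 1 of day 0 the change of Gpc3-4 was 0.0166.

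Phf6 (chrX:52912214-52956961, plus strand, 11 exons in NM_027642.2) had no peak with a value inside its 44.7 kb body, but 2 before it and 1 after it. All 3 fell with the ratio as measured and all 4 libraries, where 35% of all OCT4 peaks fell. Phf6-1 (52903666 to 52904090), 8.12 kb before the start, had ratios of 0.114 and 0.25 at day 6, against 0.378 and 0.481 at day 0. It fell by 0.247 ± 0.0693 (limma adjusted p = 0.0345), a call lost without replicate 1 of day 6 (change -0.179, limma adjusted p = 0.0907), on the logit scale (limma adjusted p = 0.0508) and on the log2 scale (limma adjusted p = 0.0791). Phf6-2 (52910000 to 52910323), 1.89 kb before the start, had 0.167 and 0.217 at day 6, against 0.581 and 0.475 at day 0. Every day 6 library at these sites was lower than every day 0 library. Phf6-3 (52961660 to 52962395), 4.70 kb past the end of the gene, had 0.15 and 0.211 at day 6, against 0.522 and 0.566 at day 0. Its decrease was rank 25 of the 1006 OCT4 peaks, with a change of -0.364 ± 0.0563 (limma adjusted p = 0.0163). Phf6-2 was rank 44, with a change of -0.336 ± 0.0612 (limma adjusted p = 0.0163). The Phf6-3 peak holds an exact octamer and Phf6-2 the variant one, and Phf6-1 holds neither.

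**Figure D2:**
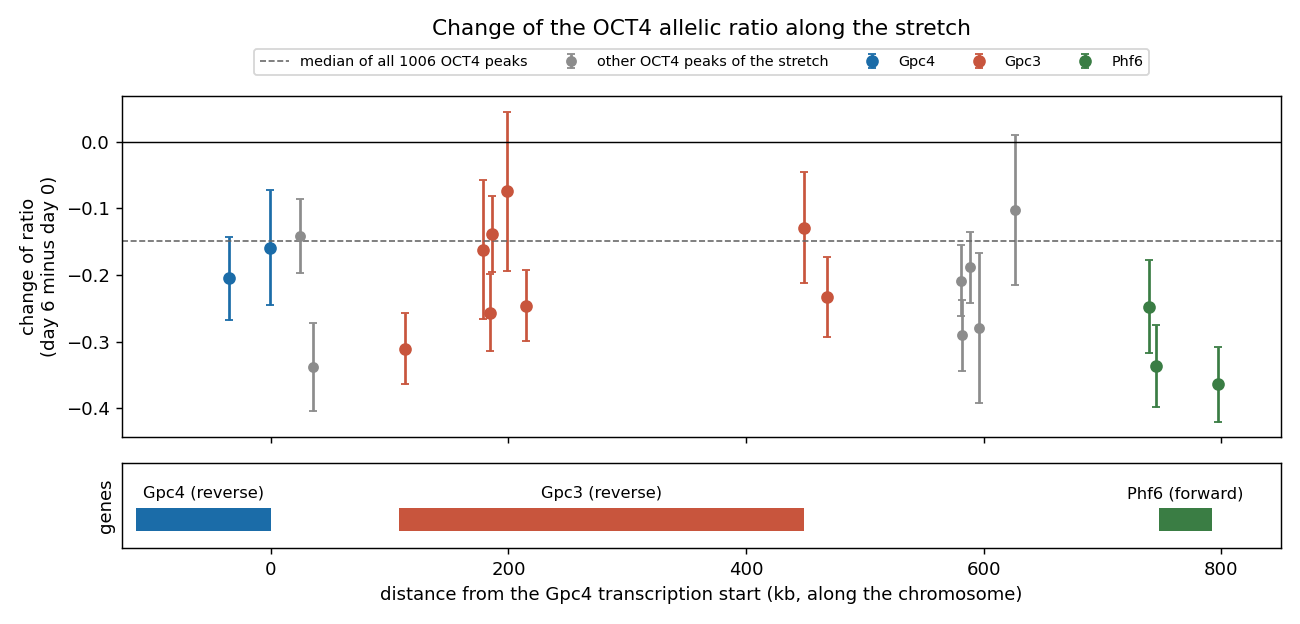
Change of the OCT4 allelic ratio, day 6 minus day 0 with its limma SE, on the vertical axis against distance from the Gpc4 transcription start in kb, with the gene bodies below. The coloured points are the 13 peaks of the 3 genes and grey points the 7 other peaks of the stretch. The dashed line is the median of all 1006 peaks, -0.149, and all 3 Phf6 peaks lie under it.

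Averaged over the peaks of a gene in each library, Phf6 ended lowest. Its mean ratio was 0.144 and 0.226 in the day 6 libraries, against 0.494 and 0.507 in the day 0 libraries (0.185 ± 0.0582 and 0.500 ± 0.00949, SD, n = 2). Gpc3 had means of 0.348 and 0.279 at day 6, against 0.514 and 0.500 at day 0 (0.314 ± 0.0490 and 0.507 ± 0.0095, SD, n = 2). Gpc4 had 0.416 and 0.357 at day 6, against 0.603 and 0.533 at day 0 (0.386 ± 0.0414 and 0.568 ± 0.0492, SD, n = 2). At each gene both day 6 libraries were under both day 0 libraries. Within replicate 1 the mean changes were -0.350 for Phf6, -0.166 for Gpc3 and -0.187 for Gpc4, and within replicate 2 they were -0.281, -0.222 and -0.176 for the same genes. Phf6 had the deepest decrease in both replicates, whereas the order of Gpc3 and Gpc4 turned between them. The gene means and the differences between genes are a description and were not tested.

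**Figure D3:**
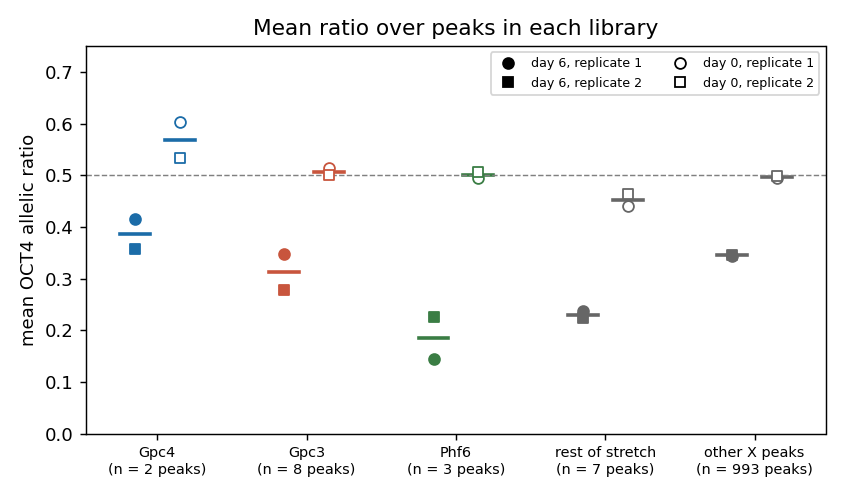
Mean OCT4 allelic ratio over the peaks of each gene, over the 7 other peaks of the stretch and over the 993 other X-linked peaks, on the vertical axis. Filled points are the day 6 libraries and open points the day 0 libraries, circles replicate 1 and squares replicate 2, horizontal bars are means of the 2 libraries, and the dashed line is 0.5. Phf6 lies at 0.144 and 0.226 at day 6, against 0.344 and 0.345 for the other X-linked peaks.

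Replicates at day 6 lay more than 0.2 apart at 3 of the 13 peaks (23.1%), against 8.75% of all OCT4 peaks. These were Gpc4-1, Gpc3-4 and Gpc3-7, and none of them was called. The median gap between day 6 replicates was 0.0606 over the 13 and 0.0677 over all peaks. Just inside the 20 kb limit lay Gpc3-1, at 18.7 kb. Just outside it, 23.9 kb before Gpc4, lay a peak (52188861 to 52189560) with 0.286 and 0.269 at day 6, against 0.451 and 0.386 at day 0. The stretch between the outer limits held 7 further OCT4 peaks with a value, of which 4 fell (35% of all OCT4 peaks did), with a median change of -0.208. The one with the lowest mean at day 6 was 34.7 kb before Gpc4 (52199623 to 52200204), with 0.125 and 0.0870 at day 6, against 0.372 and 0.516 at day 0.

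**Figure D4:**
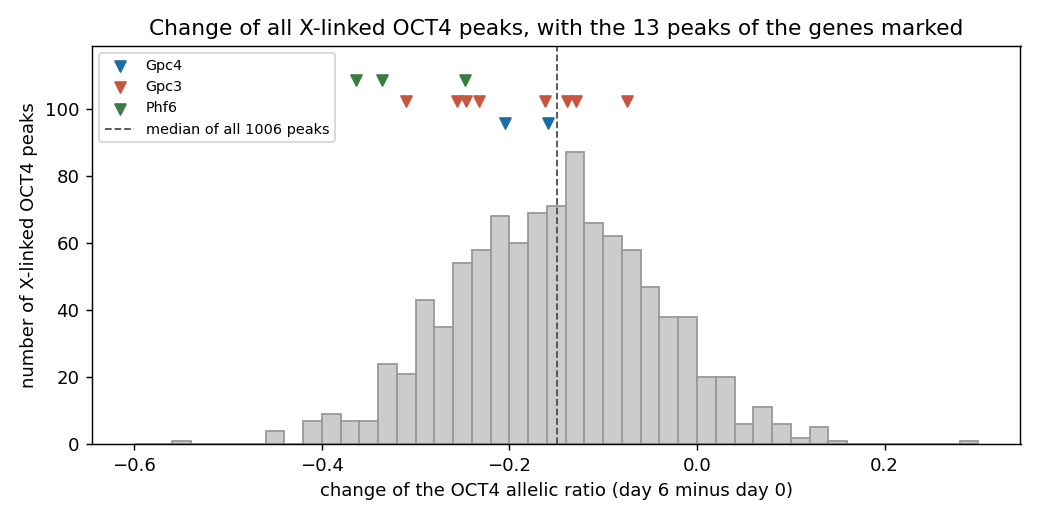
Number of X-linked OCT4 peaks (vertical axis) by change of the allelic ratio, day 6 minus day 0 (horizontal axis), for all 1006 peaks in grey. Triangles mark the 13 peaks, coloured by gene, and the dashed line the median of all peaks, -0.149. The triangles run from -0.364 at Phf6 to -0.0743 at Gpc3. The 8 members that fell lie left of the median, as do Gpc4-1 (-0.159) and Gpc3-7 (-0.162), which were not called.

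YY1 is a zinc finger factor with many promoter sites, and it had no peak with a value at these genes. YY1 peaks without an allelic value were not examined, so this does not show that YY1 was absent there. Of the 211 YY1 peaks of X, 42.2% fell. The nearest YY1 peak lay at the promoter of Hprt, the purine salvage enzyme gene, 31.2 kb past Phf6 (52988203 to 52988609). Its ratios were 0.422 and 0.426 at day 6, against 0.602 and 0.582 at day 0, and it fell by 0.168 ± 0.0314 (limma adjusted p = 0.0125). On the other side the nearest was at Usp26, 250 kb from Gpc4, with 0.208 and 0.185 at day 6, against 0.479 and 0.483 at day 0. An OCT4 peak overlapped the Hprt YY1 peak by 219 bases and had 0.308 and 0.286 at day 6, against 0.514 and 0.510 at day 0. The difference between the factors at this promoter was not tested.

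Many OCT4 peaks of these genes had no allelic value. The consensus list of OCT4 peaks held 24 at the 3 genes, and 13 had a value, while over X 1006 of 2139 (47.0%) did. Of the 11 without one, 6 were at Gpc3, 4 at Gpc4 and 1 at Phf6, and the last (52911873 to 52912551) covered the Phf6 start. One at Gpc4 (52164980 to 52165648) lay 57 bases before its start. The gene starts of Gpc4 and Phf6 are therefore not described by an allelic ratio, apart from Gpc4-1. The peaks with a value had a median width of 643 bases, against 381 for those without. Of the 172 windows of 1000 kb along X, the one starting at 52 Mb ranked 4 by consensus OCT4 peaks, with 36 against a median of 9. By peaks with a value it ranked 6, with 21 against a median of 4.

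Other X-linked genes of proteoglycans, of the synthesis or breakdown of their sugar chains and of lipid anchors were set beside the glypicans. Gpc3 and Gpc4 aside, 6 such genes had 7 OCT4 peaks in or within 20 kb of them, of which 2 fell, with a median change of -0.163, beside 35% and -0.149 for all OCT4 peaks. Both were at Hs6st2, a heparan sulphate sulphotransferase gene on the Gpc4 side of the region, with mean ratios of 0.229 at day 6 and 0.439 at day 0. The 3 peaks of the UDP-galactose transporter gene Slc35a2 had means of 0.527 at day 6 and 0.605 at day 0, and that of Piga, which begins lipid anchor synthesis, had 0.598 at day 6 and 0.684 at day 0. Ids, a lysosomal enzyme gene that acts on heparan sulphate, had a change of -0.264 that was not called, and Chst7 and Bgn had no peak with a value. YY1 had no peak with a value at any gene of the list.

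Genes of PHD finger proteins and chromatin partners were set beside Phf6. Apart from Phf6 itself, 4 such genes had 9 OCT4 peaks, of which 3 fell, with a median change of -0.188, again beside 35% and -0.149 for all OCT4 peaks. The peak of Jade3, a histone acetyltransferase scaffold, had mean ratios of 0.213 at day 6 and 0.514 at day 0, and fell. Of 4 peaks at the chromatin remodeller Atrx 1 fell, as did 1 of 3 at Rbbp7, which encodes a histone-binding protein. The peak of the demethylase gene Phf8 had a change of -0.229 that was not called. Among 10 neighbouring genes of the region 6 of 9 OCT4 peaks fell, with a median of -0.215, beside the same 35% and -0.149. These sets overlap, since the Ccdc160 peak is also 1 of the further peaks of the stretch. The 2 Hs6st2 peaks are also in the list set beside the glypicans. The peak at Plac1, a placental gene, had the lowest mean of these genes at day 6, 0.0167, against 0.284 at day 0. Mospd1 was the one gene of this list with a higher mean ratio at day 6, 0.446 against 0.415 at day 0, and it was not called.

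The genes with mean ratios most like those of each member over the 4 OCT4 libraries were found among 134 genes with at least 3 peaks, by Euclidean distance between the 4 means. For Phf6 these were Zdhhc9 (distance 0.0665), Gm42407, which lies in the same stretch (0.0871), and Enox2 (0.0910). Zdhhc9, a palmitoyltransferase gene, had 0.182 and 0.277 at day 6, against 0.484 and 0.523 at day 0. For Gpc3 they were Magt1 (0.0336), Pls3 (0.0394) and Fgf13 (0.0441), and for Gpc4 Gm39487 (0.0459), Atp7a (0.0666) and Gm15155 (0.0710). The match of Phf6 was more distant than the closest matches of both glypican genes.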

How the data were processed

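Per the labels, OCT4, YY1 and input libraries of iXist-ChrX-Cast mESCs were made at day 6 and day 0, and each allelic column was matched to 1 library by the factor, day and replicate in its name. In the OCT4 columns a clone is named as well, which the labels do not mention. The labels of the YY1 day 0 libraries name no antibody, so the factor was taken from their titles. The deposited allelic ratios are fractions, the authors' share of Xi fragments among all allele-assigned fragments of a peak. The study's methods describe alignment with Bowtie2 (version 2.3.5.1 in the submitters' notes) to mm10 with strain positions masked, removal of duplicates with Picard, allele splitting with SNPsplit, peak calling with MACS2, subtraction of input regions and counting with featureCounts. Peaks were then filtered on allele-assigned fragments and on a balanced ratio before Xist, which leaves out peaks with few strain positions or a strong bias at day 0. Input libraries have no ratio and entered only as a list of regions, of which none lay at the 3 genes.

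The members and gene lists were chosen with earlier results of these data known. Every peak in or within 20 kb of the RefSeq bodies of Gpc4, Gpc3 and Phf6 was named and counted under the nearer gene. For each factor, day 6 was compared with day 0 by limma 3.58.1 (R 4.3.3, lmFit, eBayes) over the whole table, 2 libraries against 2, two-sided, without a block, with Benjamini-Hochberg adjustment and a threshold of 0.05. The code was tested on simulated data. Motifs, gene positions and promoters came from RefSeq on GRCm38.p6, the assembly of mm10, counted from 1, and promoters of 2 of the 3 genes were matched. The alternatives tried were blocking by replicate number, the log2 scale (0.01 added to each ratio) and the logit scale (ratios clipped 0.01 from either end). Further ones were only peaks with day 0 ratios from 0.3 to 0.7, a robust eBayes prior with trend and a threshold of 0.01. Flanks and windows were also varied, and each library was left out in turn. The test between neighbouring peaks was added after the data had been seen. Python 3.11.15 with pandas 2.3.3, numpy 2.4.6, scipy 1.17.1 and matplotlib 3.10.9 was used.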

Additional observations from a re-analysis of the deposited data

How the results depend on the processing

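The number of the 13 peaks that fell was 8 with a robust eBayes prior with trend, beside 34.9% of all OCT4 peaks. It was 6 on the logit scale, beside 26.2% of all, and 6 on the log2 scale, beside 16.6%. On both of these scales Gpc4-2 and Phf6-1 lost their calls. For day 0 ratios from 0.3 to 0.7 it was 8 of 12, beside 35.8% of all peaks in that range. At an adjusted p threshold of 0.01, 0 of the 13 fell. The share of all OCT4 peaks at that threshold was not counted, so this 0 has no background beside it. The calls did not hold when either day 0 library was left out, as given above. With other flanks the peaks differ: 4 of 9 fell (44.4%) within the gene bodies (0 kb), 6 of 11 (54.5%) with 5 kb and 10 of 16 (62.5%) with 50 kb, beside 35% of all OCT4 peaks. The median change was -0.239 with the filter on day 0 ratios, -0.162, -0.205 and -0.224 for those flanks, and from -0.256 to -0.212 without 1 library. The logit and log2 scales have no comparable median. A flank of 50 kb took in 1 YY1 peak. The mean change of Gpc4 ran from -0.217 to -0.147 without 1 library. Over all OCT4 peaks 167 fell on the log2 scale, and from 0 to 288 without 1 library. For YY1 from 0 to 51 fell without 1 library. Without replicate 2 of day 6, Gpc3-4 had a change of 0.107 and Gpc3-7 of 0.00926, and without replicate 1 of day 0 Gpc3-4 had 0.0166. Without replicate 1 of day 6 Gpc3-7 had -0.333. The change of Gpc3-7 minus that of Gpc3-6 was 0.0943 with all libraries and was not called (limma adjusted p = 0.748 over 155 pairs). It ran from -0.0592 to 0.248 without 1 library. With 500 kb windows the ranks by density were 11 and 13, and 4 peaks held the octamer with 1 base left free. With a replicate block 7 of the 13 fell, beside 274 of all OCT4 peaks (27.2%), and 97 YY1 peaks did. Deviations of same-numbered libraries correlated by -0.0217 for OCT4 and 0.0315 for YY1. As the fragments per peak are unknown, this cannot tell whether same-numbered libraries belonged together. Without a day 0 library, 1 sample stands for that day and is assumed to vary like the others.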
